A study of Mus musculus with 6 samples.

Results

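The 10 genes described here carry the 2 routes of antigen presentation in the mouse. They are B2m, H2-K1, H2-D1, Tap1, Tapbp and Psmb8 for major histocompatibility complex (MHC) class I, and H2-Aa, H2-Ab1, H2-Eb1 and Cd74 for MHC class II. Their members on the array were all the probe sets that the platform annotation assigns to exactly 1 of these gene symbols, which gave 10 of 18193 annotated genes and 32 of the 45037 probe sets that were not controls. Of the 32, 26 passed the filter on dim signal and were tested, 18 of class I genes and 8 of class II genes.

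Transcripts were measured on Affymetrix Mouse430_2 arrays, a short-oligonucleotide platform, in gastrocnemius and soleus, the muscles of the calf. One group was integrin alpha7 transgenic mice, which overexpress a subunit of a receptor for laminin in muscle, and the other was wild type mice. Both groups were female, 5 weeks old, not fasted and of a background written as SJ6/C57BL6. Each of the 3 arrays per genotype carried RNA pooled from 6 animals, so 18 animals stood behind each genotype and the spread between single animals cannot be seen. The sources used here give neither the promoter nor the form of the transgene, and the titles of the wild type arrays carry the word intronic, which the labels do not explain.

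Class I molecules consist of a heavy chain, such as those encoded by H2-K1 and H2-D1, with the light chain beta-2 microglobulin from B2m. They show peptides of the cell's own proteins to cytotoxic T cells and are made by nearly all nucleated cells, at low levels by muscle fibres. The peptides are cut by the proteasome, whose interferon-induced subunit is encoded by Psmb8, are carried into the endoplasmic reticulum by the transporter to which Tap1 contributes, and are loaded with the help of tapasin from Tapbp. Class II molecules are pairs of an alpha and a beta chain, guided by the invariant chain Cd74, and show peptides of ingested proteins to helper T cells. In resting muscle they are known from macrophages, dendritic cells and B cells rather than from fibres.

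The overexpressed gene was in place, since the single probe set of Itga7 gave 2072 to 2498 on the transgenic arrays and 254 to 313 on the wild type arrays. Array medians were 34.0 to 38.4 in units of the deposited signal, and correlations between arrays over the 27022 kept probe sets were 0.971 to 0.981. Across all of these, 33 probe sets or 0.122% had an adjusted p under 0.05 by limma, 0.0999% as higher and 0.0222% as lower in transgenic muscle. Signal here is the deposited intensity, in arbitrary units, and every difference is of log2(signal + 16), transgenic minus wild type. Of the marker genes of muscle fibres, all 10 passed the filter. Their summed signals were 165853 to 175028 on the transgenic arrays and 180522 to 185144 on the wild type arrays. By their brightest probe sets 2 differences were positive and 8 negative, where 52.6% of all kept probe sets were negative. On 6 of the 10 the transgenic arrays lay wholly below the wild type ones, beside 7.50% of all, and 0 passed the test.

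All 10 antigen presentation genes had a probe set above the filter, and none of them passed the test between the genotypes. Of the 26 tested probe sets, 0 passed an adjusted p of 0.05 in limma. Before adjustment 4 had a p under 0.05, where 7.85% of all kept probe sets did. Of the 4, 2 had higher transgenic signal, beside 3.51% of all, and 2 lower, beside 4.34%. The lowest adjusted p among the 26 was 0.327. The class I probe sets had a median difference of 0.06 and the class II probe sets one of -0.17, beside -0.01 over all kept probe sets. The 95% interval of the difference reached a median of 0.30 on the log2 scale to either side and lay wholly within 1 log2 unit of no difference for 25 of the 26 probe sets.

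**Figure D1:**
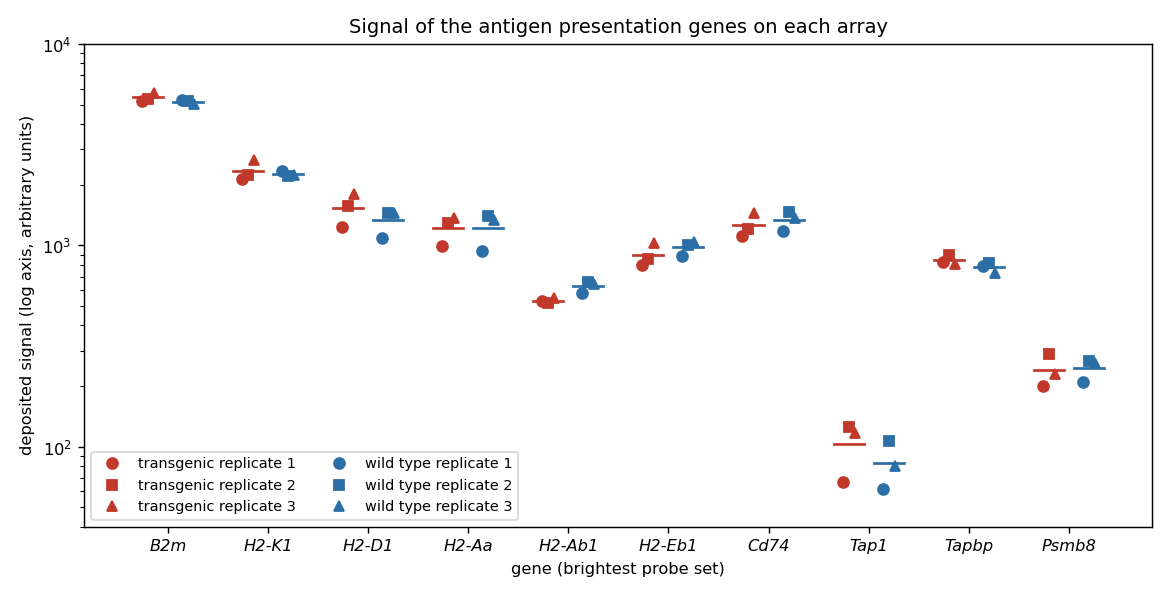
Deposited signal (log axis, arbitrary units) of the brightest probe set of each gene, with the 3 transgenic arrays in red to the left of the 3 wild type arrays in blue, marker shapes for replicate numbers and bars for group means. The groups overlap for each gene other than H2-Ab1, for which the 3 transgenic arrays, at 550.0 or less, lie below the 3 wild type arrays, at 583 or more.

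Transcription of both classes is known to run through a shared promoter module, the X and Y boxes, bound by the RFX complex, CREB family factors and NF-Y. The proximal promoters of the class I light chain, a class I heavy chain and a class II alpha and beta chain are shown so that the elements the 2 classes share, and their spacing, can be seen beside the values of both. The sequences are the 200 bases before the annotated start site in RefSeq, build GRCm38.p6, read on the strand of the gene from 5′ to 3′, and capitals mark the core of the X2 box, TGACG, and the core of the Y box, ATTGG, on either strand.
B2m, chr2:122147487-122147686, plus strand: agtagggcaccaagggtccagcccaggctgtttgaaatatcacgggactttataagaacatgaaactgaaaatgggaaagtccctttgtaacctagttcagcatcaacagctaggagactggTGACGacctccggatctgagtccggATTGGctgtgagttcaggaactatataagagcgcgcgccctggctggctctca
H2-D1, chr17:35262894-35263093, plus strand: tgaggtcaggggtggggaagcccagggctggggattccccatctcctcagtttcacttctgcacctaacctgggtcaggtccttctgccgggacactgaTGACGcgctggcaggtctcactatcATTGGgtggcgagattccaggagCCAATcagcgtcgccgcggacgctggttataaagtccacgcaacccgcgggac
H2-Aa, chr17:34287824-34288023, minus strand: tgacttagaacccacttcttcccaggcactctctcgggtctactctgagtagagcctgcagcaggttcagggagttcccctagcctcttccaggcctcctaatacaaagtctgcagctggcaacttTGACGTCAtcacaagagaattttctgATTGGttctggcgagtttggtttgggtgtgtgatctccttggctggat
H2-Eb1, chr17:34305667-34305866, plus strand: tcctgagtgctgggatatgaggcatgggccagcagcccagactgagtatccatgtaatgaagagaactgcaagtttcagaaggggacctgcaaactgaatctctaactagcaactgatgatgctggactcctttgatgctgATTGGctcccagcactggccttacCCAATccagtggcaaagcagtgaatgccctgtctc

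The motifs were searched on both strands in 200-base windows of 27025 genes, and the windows of 8 antigen presentation genes of this set were read. Those of H2-Ab1 and Cd74 were not read, so their absence below does not mean that they lack the motifs. The X2 box core was found in 15.8% of windows and in those of B2m, H2-D1, H2-K1, H2-Aa and Tap1. It matched on both strands of H2-Aa, where the matches overlap. The Y box core was found in 8112 windows, or 30%, and in those of B2m, H2-D1, H2-K1, H2-Aa, H2-Eb1 and Tapbp, and on the opposite strand a second time in H2-D1 and H2-Eb1, where it reads CCAAT. In B2m the X2 box core began at base -78 and the Y box core at base -53 from the start site, and in H2-Aa they began at bases -74 and -48. A match says only that these letters are present. The window of H2-Eb1 had no exact match to the X2 box core, which does not show that the box is absent.

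The class I light chain gave close values in both genotypes. Probe set 1452428_a_at gave 5217, 5313 and 5738 on the transgenic arrays, against 5273, 5199 and 5052 on the wild type arrays. Probe set 1449289_a_at gave 5247, 5585 and 5247 in transgenic and 4796, 5402 and 5310.2 in wild type muscle. The arrays of the genotypes overlapped on both. The differences were 0.07 and 0.05 on the log2 scale, with 95% intervals running to 0.19 from -0.06 and -0.08, and limma adjusted p of 0.815 and 0.877. These were the narrowest intervals among the 26 probe sets.

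The class I heavy chains are similar in sequence. Of the 13 probe sets of H2-K1 and H2-D1, 11 had names ending in _x_at, the platform's mark for probes that can also bind other transcripts. The assignment of these signals to 1 heavy chain gene is therefore uncertain. Whether sequence variants within the stated background changed binding to the probe sets of the H2 genes was not tested. For H2-K1, the brightest probe set, 1425336_x_at, gave 2134, 2223 and 2644 on the transgenic arrays, against 2344, 2218 and 2242 on the wild type arrays. Its difference was 0.03 with an adjusted p in limma of 0.951. The groups overlapped, and the highest and the lowest of the 6 values were both of transgenic arrays.

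The second probe set of H2-K1 had a positive difference that did not pass the test. Probe set 1451931_x_at gave 1375, 1567 and 1684 on the transgenic arrays, against 1009, 1322 and 1376 on the wild type arrays. Only the lowest transgenic and the highest wild type array overlapped, by less than 1 unit of signal. The difference was 0.32 with a 95% interval of 0.07 to 0.58. In limma its p was 0.0159, and 0.515 after adjustment. The log2 difference was 0.19 without wild type replicate 1. The dimmer probe sets of H2-K1 had negative differences, at -0.16 for 1427746_x_at, with means of 358 ± 83.3 in transgenic and 397 ± 24.7 in wild type muscle (SD, n = 3 each), and at -0.09 for 1450534_x_at. Both overlapped between the genotypes, so the 4 probe sets of the gene disagreed in direction.

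For H2-D1, 8 of 9 probe sets passed the filter, and 6 of these had positive and 2 negative differences. The largest difference was on 1451784_x_at, which gave 1019, 1388 and 1716 on the transgenic arrays, against 806, 1108 and 1065 on the wild type arrays. Transgenic replicates 2 and 3 were above every wild type array, while transgenic replicate 1 lay within the wild type range. The difference was 0.44 with a 95% interval of 0.08 to 0.81. In limma its p was 0.0210, and 0.539 after adjustment. The log2 difference was 0.27 without transgenic replicate 3 and 0.30 without wild type replicate 1, so that single arrays set much of its size.

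The 2 brighter probe sets of H2-D1 gave smaller differences. Probe set 1425545_x_at gave 1233, 1577 and 1789 on the transgenic arrays, against 1088, 1454 and 1449.9 on the wild type arrays, a difference of 0.20 with an adjusted p in limma of 0.781. This too depended on single arrays, at 0.0609 without wild type replicate 1, 0.0794 without transgenic replicate 3 and 0.345 without transgenic replicate 1. Probe set 1451683_x_at gave 1265, 1438 and 1477 in transgenic and 1248, 1361 and 1413 in wild type muscle, a difference of 0.05 with an adjusted p of 0.915. On both, as on 1451784_x_at, the first array of each genotype was the lowest of its group and the groups overlapped.

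The other 5 tested probe sets of H2-D1 were dim, with mean signals of 26.1 to 130.3, and gave differences of -0.40 to 0.26. The lowest was 1427651_x_at, at 58.5, 56.5 and 34.7 in transgenic and 79.3, 57.2 and 73.6 in wild type muscle, with an unadjusted p of 0.0801. The dimmest tested, 1425614_x_at, had the widest interval of the set, -1.02 to 0.33. The remaining one, 1451934_at, lay below the filter at 3.63 to 30.6 and was not tested. Within the 2 heavy chain genes as a whole, 12 probe sets were tested, 8 with positive and 4 with negative differences, and their median was 0.09.

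A further 3 probe sets carry several symbols with H2-K1 or H2-D1 among them and are no members. Of these, 1424948_x_at gave 739 ± 42.3 in transgenic and 785 ± 20.4 in wild type muscle, and 1451593_at gave 328 ± 36.6 in transgenic and 347 ± 7.14 in wild type muscle (SD, n = 3 each). Their differences were -0.09 and -0.08, neither past the test, and the third lay below the filter.

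**Figure D2:**
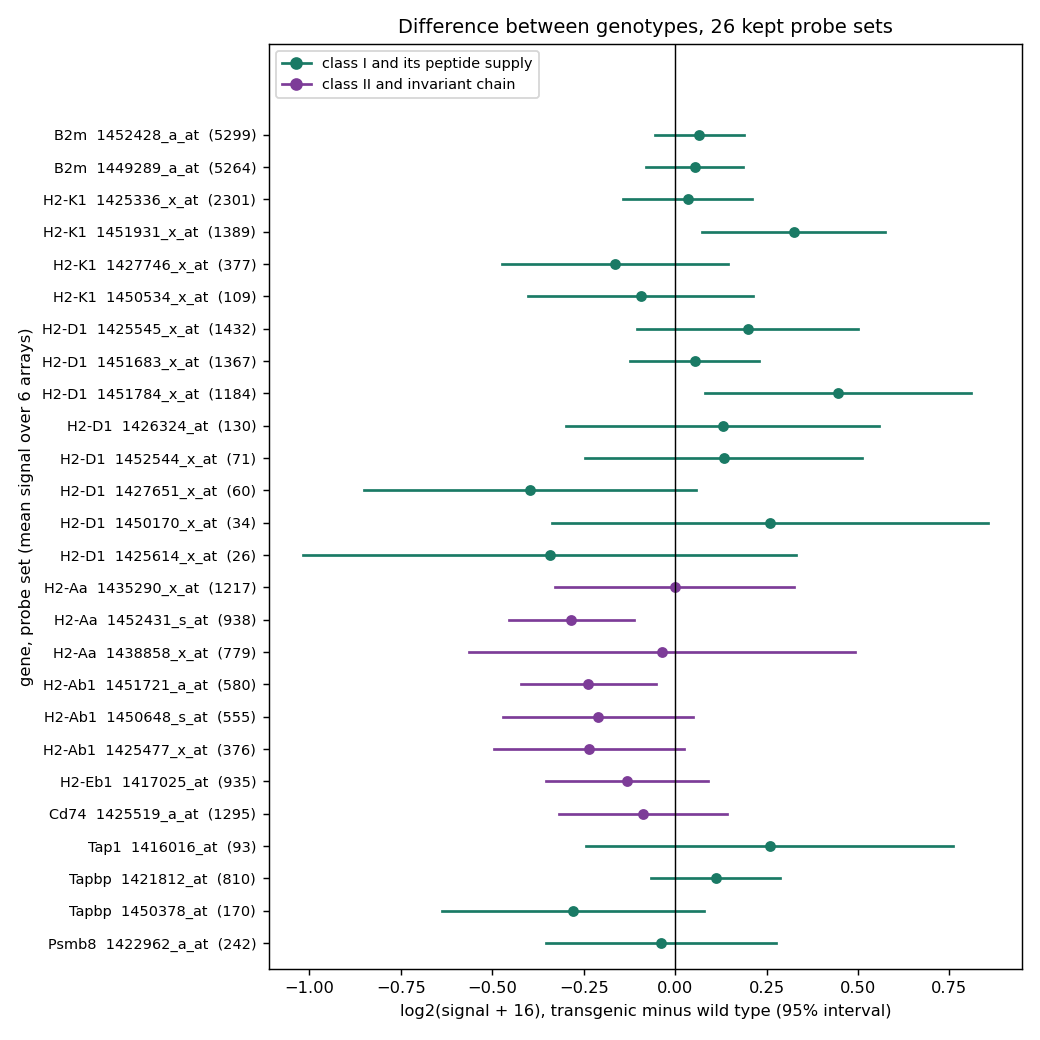
Difference of log2(signal + 16), transgenic minus wild type, with its 95% interval from limma for the 26 tested probe sets, with the mean signal over 6 arrays in brackets, class I genes in green and class II genes in purple. The 8 class II points lie at or left of 0, from -0.28 to -0.00, while the class I points spread on both sides, from -0.40 to 0.44, and 22 of the 26 intervals hold 0.

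The genes of peptide supply to class I showed no difference that passed the test. Of 4 probe sets of Tap1, only 1416016_at was above the filter, with 66.8, 126 and 117 on the transgenic arrays, against 61.5, 106 and 80.0 on the wild type arrays. The first array of each genotype was again the lowest of its group. The difference was 0.26 with a wide interval, -0.24 to 0.76, and a limma adjusted p of 0.827. With 1 array left out it ran from 0.0966, without wild type replicate 1, to 0.50, without transgenic replicate 1. The other 3 probe sets of Tap1 had signals of 14.2 or less on every array.

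Tapasin gave opposite signs on its 2 probe sets. The brighter, 1421812_at, gave 826, 892 and 805 in transgenic and 791, 818 and 725 in wild type muscle, a difference of 0.11 with an adjusted p in limma of 0.789. The dimmer, 1450378_at, gave 148, 145 and 157 in transgenic and 233, 139 and 196 in wild type muscle, a difference of -0.28 with an adjusted p of 0.728. This difference was -0.13 when wild type replicate 1 was left out and -0.47 when wild type replicate 2 was. On the dimmer one the transgenic arrays lay close together and the wild type arrays spread around them. The immunoproteasome subunit Psmb8 gave 201, 288 and 228 in transgenic and 209, 265 and 260.0 in wild type muscle on 1422962_a_at, a difference of -0.04 with an adjusted p of 0.971. Its other probe set, 1444619_x_at, stayed below the filter, at 5.13 to 16.6.

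The class II genes had small negative differences, transgenic minus wild type, and none passed the test. All 8 tested probe sets, which represent 4 genes, had negative differences, where 52.6% of all kept probe sets did. For 6 of the 8 the interval held 0. Several of these probe sets measure the same transcript, and with equal array medians 6 of the 8 were negative. The names of 1435290_x_at and 1438858_x_at of H2-Aa and 1425477_x_at of H2-Ab1 also end in _x_at. Their signals may therefore include other transcripts, as for the heavy chains.

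The alpha chain H2-Aa gave the smallest p of the set, on 1452431_s_at only. This probe set gave 849, 805 and 878 on the transgenic arrays, against 1008, 1109 and 979 on the wild type arrays. The 3 transgenic arrays lay below the 3 wild type arrays. Over all kept probe sets, 7.50% had transgenic arrays wholly below the wild type ones, and 2 of the 26 tested members did, both of class II. Wholly above lay 5.85% of all kept probe sets and 0 members, and 13.4% of all lay apart in either direction. The difference was -0.28, or 0.821-fold, with a 95% interval of -0.45 to -0.11. In limma its p was 0.00359, and 0.327 after adjustment.

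The brightest probe set of H2-Aa, 1435290_x_at, gave 988, 1284 and 1366 in transgenic and 936, 1395 and 1331 in wild type muscle. Its difference was -0.00 with an interval of -0.33 to 0.33. Probe set 1438858_x_at was scattered within both groups, at 809.9, 1014 and 498 in transgenic and 544, 996 and 815 in wild type muscle, and gave -0.04 with an interval of -0.56 to 0.49. The fourth, 1443783_x_at, was below the filter at 9.03 to 36.2. The groups of 1435290_x_at and 1438858_x_at overlapped, unlike those of 1452431_s_at.

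All 3 probe sets of the beta chain H2-Ab1 gave differences of about the same size, none past the test. The brightest, 1451721_a_at, gave 526, 516 and 550.0 on the transgenic arrays, against 583, 660.2 and 646 on the wild type arrays. The groups did not overlap. The difference was -0.24, or 0.848-fold, with a 95% interval of -0.42 to -0.05. In limma its p was 0.0161, and 0.515 after adjustment.

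Probe set 1450648_s_at of H2-Ab1 gave 445, 532 and 559.7 in transgenic and 502, 642 and 647 in wild type muscle, a difference of -0.21 with an adjusted p in limma of 0.715. Probe set 1425477_x_at gave 327, 365 and 337 in transgenic and 358, 488 and 384 in wild type muscle, a difference of -0.24 with an adjusted p of 0.680. On both, 1 wild type array, replicate 1, lay within the range of the transgenic arrays. With 1 array left out, 1450648_s_at ran from -0.33 to -0.12 and 1425477_x_at from -0.32 to -0.11.

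The second beta chain H2-Eb1 and the invariant chain Cd74 had 1 probe set each. H2-Eb1 gave 801, 851 and 1028 on the transgenic arrays, against 888, 1003 and 1042 on the wild type arrays on 1417025_at, a difference of -0.13 with -0.35 to 0.09 as its 95% interval and a limma adjusted p of 0.802. Cd74, which escorts the class II chains out of the endoplasmic reticulum, gave 1113, 1212 and 1445 in transgenic and 1178, 1459 and 1364 in wild type muscle on 1425519_a_at. Its difference was -0.09 with -0.32 to 0.14 as its interval, and its adjusted p was 0.884. For both genes the groups overlapped and transgenic replicate 3 was the highest of its group. Leaving out 1 array moved H2-Eb1 between -0.24, without transgenic replicate 3, and -0.0599, without transgenic replicate 1. The same arrays gave the ends for Cd74, at -0.19 and -0.0054.

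**Figure D3:**
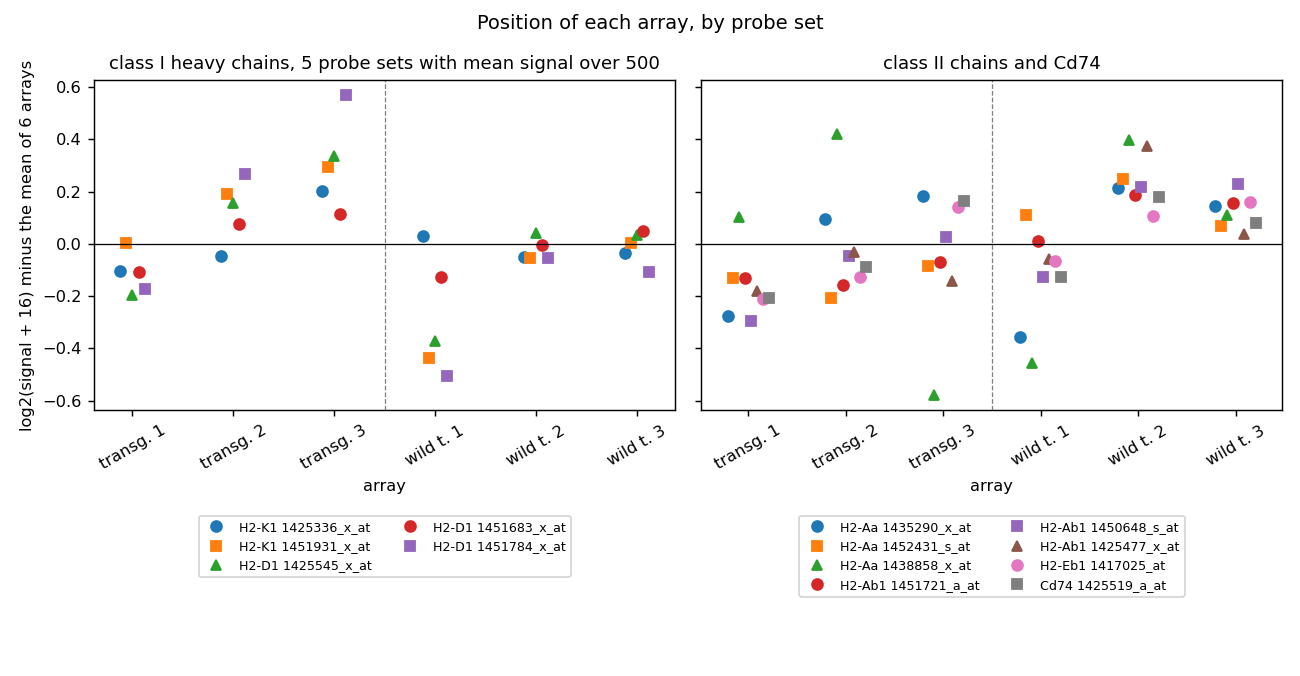
Deviation of log2(signal + 16) from the mean of the 6 arrays, by array, for the 5 heavy chain probe sets of highest signal (left) and the 8 tested class II probe sets (right), transgenic arrays left of the dashed line. Transgenic replicate 3 is the highest array for all 5 heavy chain probe sets, wild type replicate 1 is the lowest for 4 of them, and wild type replicates 2 and 3 lie above the mean for all 8 class II probe sets.

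The hybridisation, on 1 day, was divided here into 2 rounds, cut where the times in the run files lay more than 0.5 hours apart. The first round held replicates 1 and 2 and the second replicate 3 of each genotype. The class II median was -0.20 in the first round and -0.17 in the second, and the class I median was 0.07 and 0.02. For 1452431_s_at of H2-Aa the difference was -0.35 in the first round and -0.15 in the second, and for 1451721_a_at of H2-Ab1 it was -0.24 and -0.23. For 1451784_x_at of H2-D1 it was 0.33 in the first round and 0.68 in the second, and for 1451931_x_at of H2-K1 it was 0.34 and 0.29. The second round held 1 array per genotype and allows no test. With the round as a block the differences were the same as without it, and 0 members passed.

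Among other genes of the pathway, 1 passed over all kept probe sets. This was Calr, the chaperone calreticulin, which holds new class I heavy chains for peptide loading and also folds many other glycoproteins. Its brightest probe set, 1417606_a_at, gave 2072, 2085 and 2649.9 on the transgenic arrays, against 1345, 1413 and 1486 on the wild type arrays, and rose by 0.67 with an adjusted p in limma of 0.020. Its other 2 probe sets gave 0.60 and 0.68 with adjusted p of 0.0698 and 0.0570, with transgenic arrays above wild type arrays on all 3. The call of Calr was lost without any 1 of the wild type arrays, at an adjusted p of 0.0706 to 0.131. It was also lost with no filter, at 0.0679, and without the intensity trend, at 0.417.

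Of 11 further genes of class I peptide supply and loading, 10 had a tested probe set, with 6 positive and 4 negative differences and a median of 0.05. After Calr, the smallest p values were those of Canx and Psme1. Canx, the chaperone calnexin, gave 2132, 2133 and 1980.1 in transgenic and 1516, 1661 and 1624 in wild type muscle on its brightest probe set, a difference of 0.38 with an adjusted p in limma of 0.0698. Psme1, a subunit of the proteasome activator PA28, gave 1518, 1630.5 and 2022 in transgenic and 1273, 1389.7 and 1207 in wild type muscle, a difference of 0.41 with an adjusted p of 0.276. On these probe sets neither gene had overlapping groups. Of the dimmer probe sets of Canx, 1422845_at gave 0.22 with groups that overlapped, and 1428935_at gave 0.43 with groups that did not.

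The further class I and class I-like chains had 7 tested genes of 16, with 1 positive and 6 negative differences, a median of -0.18 and 0 past the test. The smallest p was that of Hfe, the class I-like regulator of iron uptake, with 519.6, 467 and 487 in transgenic and 647, 615 and 659 in wild type muscle, groups that did not overlap. Its difference was -0.37 with an adjusted p in limma of 0.189, and a dim second probe set of Hfe gave -0.13. Fcgrt, the neonatal Fc receptor chain, gave -0.20 with an adjusted p of 0.673, and H2-Q10, a secreted class I chain, gave -0.34 with an adjusted p of 0.691.

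The further class II genes had 10 tested genes of 12, with 5 positive and 5 negative differences, a median of 0.02 and 0 past the test. Ifi30, a lysosomal thiol reductase that prepares antigens, gave 449, 464 and 427 in transgenic and 391, 380.5 and 361 in wild type muscle, a difference of 0.23 with an adjusted p in limma of 0.545. Lgmn, a lysosomal protease, gave 0.18 and H2-Eb2, a beta chain, -0.31, both with arrays that overlapped. H2-DMb2, counted at -0.15 by its brightest probe set, gave 0.84 on the dimmer 1443686_at, with transgenic arrays wholly above wild type ones. In limma the p of 1443686_at was 0.00086, and 0.192 after adjustment. The remaining probe set of H2-DMb2 gave -0.21. H2-Ea lay below the filter.

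Regulators of MHC transcription had 15 tested genes of 16, with 9 positive and 6 negative differences, a median of 0.01 and 0 past the test. The smallest p values were those of the interferon receptor chains Ifnar2, at -0.22, and Ifngr1, at -0.30, and of Socs1, an inhibitor of cytokine signalling, at -0.54, with adjusted p in limma of 0.673, 0.680 and 0.683. Socs1 was dim, with 19.8, 16.1 and 22.3 on the transgenic arrays, against 55.9, 23.8 and 31.6 on the wild type arrays.

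**Figure D4:**
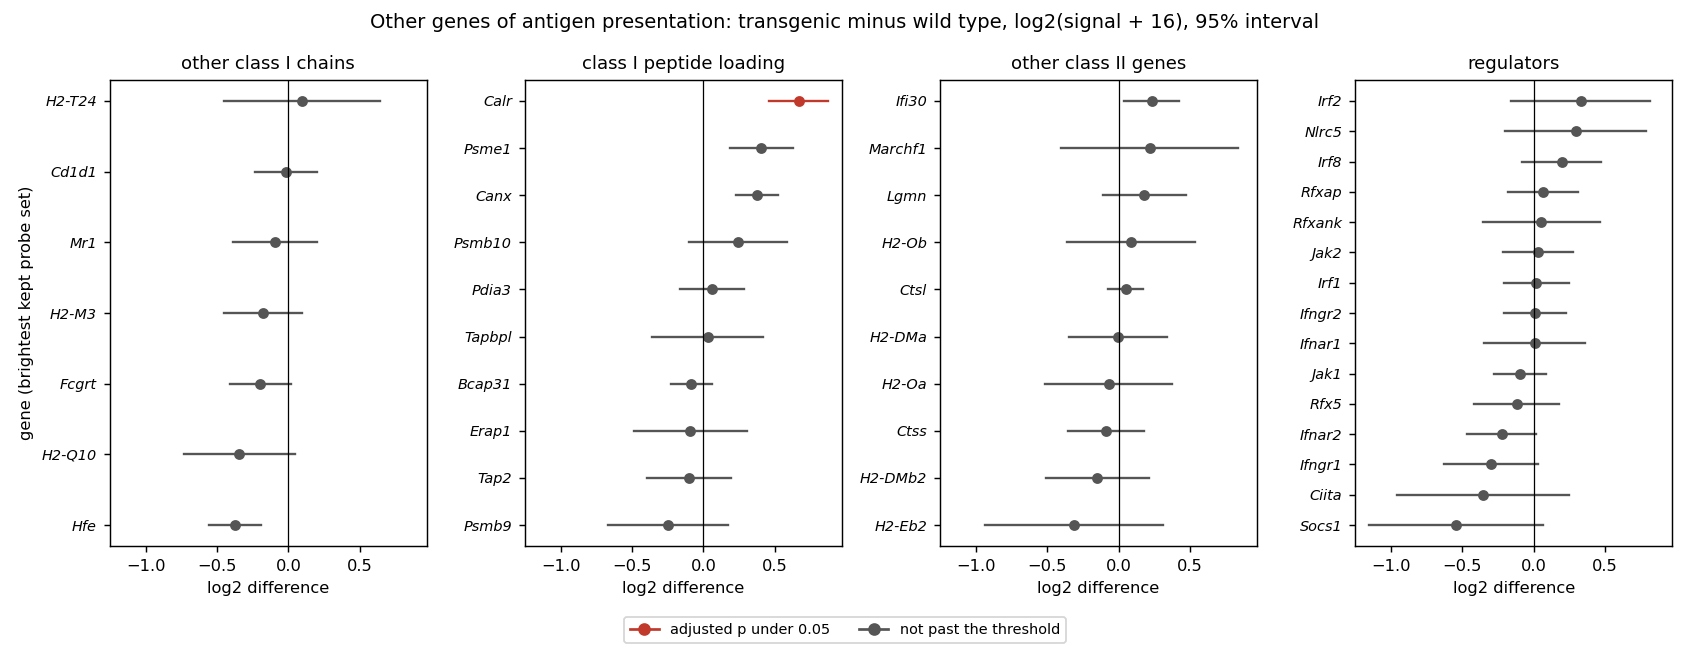
Difference of log2(signal + 16), transgenic minus wild type, with its 95% interval from limma, for the brightest tested probe set of each further gene of the pathway, in 4 lists. Calr, in red at 0.67, is the only gene past an adjusted p of 0.05, and 6 of 7 further class I chains lie left of 0.

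Cells other than fibres can contribute these transcripts to whole muscle, and in pooled tissue fewer cells of a type and less RNA per cell cannot be told apart. Macrophage markers were well detected, with 10 of 10 genes tested, 4 positive and 6 negative differences and summed signals of 6347 to 7013 on the transgenic arrays and 6595 to 7000.4 on the wild type arrays. On their brightest probe sets Csf1r, the receptor of a macrophage growth factor, gave -0.21 and the complement gene C1qb gave 0.25. Their adjusted p in limma were 0.496 and 0.578. Of the dimmer probe sets of C1qb, 1434366_x_at gave -0.15 and 1437726_x_at 0.19, and those of Csf1r gave -0.09 and -0.05. Lyz2, which encodes lysozyme, gave -0.02.

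Dendritic cell markers were dim, with 5 of 8 tested, 1 positive and 4 negative differences and sums of 204 to 246 in transgenic and 224 to 285 in wild type muscle, and Xcr1 and Siglech were below the filter. B cell markers had 6 of 7 tested, with 4 positive and 2 negative differences. Their sums were 1455 to 1533 in transgenic and 1496 to 1622 in wild type muscle. Most of each sum came from Ighm, an immunoglobulin heavy chain gene, at 951 to 1149 across the arrays. Its brightest probe set gave -0.12 with an adjusted p in limma of 0.768. T and NK cell markers had 5 of 10 tested, with 3 positive and 2 negative differences and sums of 334 to 349 in transgenic and 282 to 372 in wild type muscle, and Cd3e, Cd4 and Ncr1 were below the filter.

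The markers shared by all leukocytes had 5 of 5 tested, all with positive differences by their brightest probe sets. Their sums were 2251 to 2373 in transgenic and 1999 to 2084 in wild type muscle. Cd52 led them at 0.44 with an adjusted p in limma of 0.118. Endothelial markers, another source of class I transcripts, had 7 of 7 tested, all negative by their brightest probe sets. Of all kept probe sets, 52.6% were negative. The endothelial sums were 1495 to 1645 in transgenic and 1679 to 1890.4 in wild type muscle. Among leukocyte and endothelial markers alike, a dimmer probe set of 1 gene had the opposite sign, at -0.18 and 0.20. Tek, an endothelial receptor, gave -0.36 with an adjusted p of 0.313. None of these markers passed over all kept probe sets, and their part in the class I and class II differences was not tested.

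The pattern across arrays was compared with that of 12932 other genes over 6 arrays, as a description, since the closest of so many genes are close by selection. The mean deviation of H2-Aa, H2-Ab1, H2-Eb1 and Cd74, each by its brightest probe set, was -0.21, -0.07 and 0.10 on the transgenic arrays and -0.13, 0.17 and 0.14 on the wild type arrays. The genes with the most similar pattern were Rspo2, Sf3a2, Zfp580, Ube2s and Ino80, with Pearson's r of 0.990 to 0.975. The mean deviation of B2m, H2-K1 and H2-D1 was -0.11, 0.04 and 0.22 on the transgenic arrays and -0.12, -0.01 and -0.02 on the wild type arrays. The most similar genes there were Vps50, Nhp2, Lgals9, Slc15a3 and Gnb2, with r of 0.998 to 0.980. Lgals9, the lectin galectin-9, gave 401, 450.1 and 578 in transgenic and 367, 435 and 424 in wild type muscle.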

How the data were processed

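RNA of calf muscle was hybridised to 6 arrays, 3 of transgenic and 3 of wild type mice, grouped by the genotype labels. Each array is a pool that the study's design text calls a biological replicate. The authors deposited a linear intensity per probe set, and GCOS 1.1.1 is named in the submitters' processing notes, without its algorithm. Each array's deposited mean, after trimming 2% at each end, is 150.0, so that no change common to most transcripts would show. The number of arrays limits the precision.

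From 45101 rows, 64 controls were left out. Probe sets with a mean log2 of the deposited intensity plus 16 over the 40th percentile, equal to a signal of 21.7, were kept, which left 27022. This scale understates changes of dim transcripts. The model was fitted to the whole table with limma 3.58.1 in R 4.3.3, with an intensity trend, no covariates, two-sided tests, 95% intervals and Benjamini-Hochberg adjustment over all kept probe sets. It was tested on simulated data, where it missed most of the smallest changes. These changes were larger than the difference of any member in the main fit, so a member without a call may still differ. The platform annotation gave no symbol for 9160 probe sets, several for 932 and 1 for 34945, of which 34741 probe sets took the symbol of their gene identifier in RefSeq (GRCm38.p6). List genes stand by their brightest kept probe set, and list genes without a probe set of 1 symbol are not analysed here.

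All probe sets of the members are covered, by name or within a stated range of values. Of each further list, the genes past the threshold and the 3 of smallest p are named, with H2-DMb2 added because its probe sets disagreed. Of each marker list up to 2 of the brightest and 2 of smallest p are named, and for likeness the 5 genes of highest r. The members and lists were chosen with earlier results of these data known, and the motifs after the promoters were read. Both genotypes use replicate numbers 1 to 3. The deviations of arrays with the same number correlated at 0.003, 0.060 and 0.049, and those of arrays with different numbers at -0.078 to 0.024. All of these are small and do not settle whether the numbers pair arrays, and the main fit used no pairing. Alternatives covered the offset, normalization, filter, variance model and array weights, the replicate number, hybridisation round and fluidics module as blocks, and each array left out. The module and the hybridisation time were read from the deposited run files. The rounds are not named there and were set by gaps of more than 0.5 hours between times.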

Additional observations from a re-analysis of the deposited data

How the results depend on the processing

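Under each of 18 alternatives with a test, 0 member probe sets passed, as in the analysis reported. The lowest adjusted p among members over these was 0.0778, in limma with the fluidics module as random effect. That fit estimated a negative correlation between arrays of the same module, at -0.436, so its p values call for caution. The highest of the minima over the alternatives was 0.635, in limma without the intensity trend. With the replicate number as a block (replicate block), limma called 36 probe sets over the whole array against 33 without it, and 0 members, with a lowest member adjusted p of 0.119. The class I median was 0.04 to 0.09 and the class II median -0.28 to -0.11 with 1 array left out. The class II median was -0.28 with wild type replicate 1 left out, and -0.11 with either wild type replicate 2 or transgenic replicate 1 left out. The count over the whole array was 50 with equal array medians, 17 with no filter, 1 without the intensity trend, 297 with the module, each of which held 1 genotype, and 18 to 39 with 1 array left out. Leaving out wild type replicate 2 gave 18, and wild type replicate 1 gave 19. Further pathway genes past the threshold numbered 0 with no filter or no trend, 2 with array weights (Calr and Canx), 5 with the module and 0 to 2 with 1 array left out. Class II probe sets with negative differences numbered 6 of 8 in the second round alone, which has no test.

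No member was called, and 20 of 26 kept their sign under each tested alternative in which they were fitted (the stricter filter left 24 of the 26). With equal array medians 1435290_x_at of H2-Aa turned to 0.0489, 1438858_x_at of H2-Aa to 0.0152 and Psmb8 to 0.0110. With array weights 1425336_x_at of H2-K1 turned to -0.0050 and 1438858_x_at to 0.0499. In the first round alone, 1425336_x_at turned to -0.0658, 1425614_x_at of H2-D1 to 0.0242, 1438858_x_at to 0.29 and Psmb8 to 0.0289. With the module 1435290_x_at turned to 0.0184. With 1 array left out, the values ran from -0.18 to 0.14 for 1435290_x_at, -0.27 to 0.25 for 1438858_x_at, -0.17 to 0.0711 for Psmb8, -0.0577 to 0.0959 for 1425336_x_at and -0.0544 to 0.33 for 1426324_at of H2-D1. The cause was not tested.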

Other observations

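The arrays numbered 1 were the lowest of their genotype for many of the antigen presentation genes, a pattern seen after the values were known. This held in both genotypes for 11 of the 26 tested probe sets, and for 6 of 10 genes by their brightest probe set, namely those of H2-D1, H2-Aa, H2-Eb1, Cd74, Tap1 and Psmb8. Over all kept probe sets it held for 11.3%. The labels do not say that a shared number marks a shared litter, batch or day, and over the whole array the deviations of the 2 arrays numbered 1 correlated at 0.003. Both were hybridised in the first round, on different fluidics modules. The cause was not tested.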
